A study of Mus musculus with 24 samples.

Results

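Endothelial cells, sorted as CD31+ from mouse hindlimb muscle 1 day after cardiotoxin injury, were compared with the other 3 cell populations sorted from injured muscle at the same time. The comparison used 12 of the 24 RNA-seq libraries of the series: 3 of injured CD31+ cells, 3 of injured CD45+ hematopoietic cells, 3 of injured MSC (mesenchymal stromal cells, sorted as CD45-CD31-Sca1+PDGFRa+) and 3 of injured MuSC (satellite cells, the muscle stem cells, sorted as CD45-CD31-Sca1-Vcam1+). The other 12 libraries held the same 4 populations from uninjured muscle and were used only to ask whether a difference was also there without injury. Cardiotoxin is a snake venom toxin that kills muscle fibers and starts their regeneration. All mice were C57BL/6 aged 8 weeks, with no transgene or engineered allele named, and each library was made from 1000 cells that were sorted through the gate on 2 passes. Replicates are biological per the labels, which do not say whether animals were pooled or equal replicate numbers share a mouse, and they give no CD45 gate for the CD31+ cells.

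Endothelial cells form the inner wall of blood and lymphatic vessels, hold it tight through junctions of VE-cadherin and claudin-5, and answer VEGF, angiopoietin, Notch and BMP signals. Most of those in skeletal muscle line capillaries, where they release and take up fatty acids from blood lipoproteins for the muscle fibers and lie close to satellite cells. After muscle injury vessels regrow by sprouting, led by tip cells with high VEGF signaling, while the endothelium also guides leukocytes into the tissue and supplies growth factors to its neighbors.

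Expression is given in CPM, the count of a gene scaled to the depth of its library and then between libraries by the TMM method of edgeR. Pecam1, which encodes the sorted CD31 antigen, had 1826, 1984 and 1855 CPM in the injured CD31+ libraries, against 9.56, 18.4 and 17.9 CPM in CD45+, 0, 0.652 and 0 CPM in MSC and 0.137, 0.151 and 0.242 CPM in MuSC. The CD31+ libraries stood above all 9 others, by 123-fold over CD45+ cells (log2 fold change 6.95, SE 0.31, edgeR quasi-likelihood adjusted p = 6.14e-09). Ptprc, which encodes CD45, had 9.95, 2.59 and 3.16 CPM in CD31+ libraries and averaged 510 ± 66.7 CPM in CD45+ libraries (SD, n = 3). Pdgfra had 0.594, 0.555 and 1.10 CPM in CD31+ libraries and averaged 641 ± 70.9 CPM in MSC (SD, n = 3), but it also had 0.275, 45.8 and 23.7 CPM in the MuSC libraries, which were sorted as Sca1-. Vcam1, the MuSC gate gene and an adhesion molecule of activated endothelium, had 46.4, 25.9 and 27.3 CPM in CD31+ libraries and averaged 377 ± 37.9 CPM in MuSC (SD, n = 3). Ly6a, the Sca1 gene, which endothelium also expresses, had 2518, 3057 and 2775 CPM in CD31+ libraries and averaged 1993 ± 477 CPM in MSC. This difference did not pass the test (log2 fold change 0.48, adjusted p = 0.359), but it passed under limma-voom, an alternative test (adjusted p = 5.77e-03).

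The sum of 14 endothelial identity genes (such as Cdh5, Kdr, Tie1, Emcn and Cldn5) was 17121 to 18766 CPM of the raw total in CD31+ libraries, against 323 to 396 in CD45+, 499 to 542 in MSC and 81.5 to 115 in MuSC. Leukocyte marker transcripts summed to 40.9 to 360 CPM in CD31+ libraries and to 35369 to 37435 CPM in CD45+ libraries, and the highest CD31+ value belonged to replicate 1. Lyz2, a macrophage and neutrophil gene, had 105 CPM in that replicate and 1.66 and 0.158 CPM in CD31+ replicates 2 and 3. Stromal markers summed to 36.3 to 49.996 CPM in CD31+ libraries against 42151 to 60323 in MSC, and satellite cell markers to 102 to 129 CPM against 10606 to 11767 in MuSC. Muscle fiber transcripts summed to 51.8 to 105 CPM in CD31+ libraries, within 4.13 to 315 CPM in the other populations, and Schwann cell markers to 52.9 to 75.0 CPM, within 38.0 to 151 CPM.

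Mural cell genes, which mark the pericytes and smooth muscle cells wrapped around vessels, were present in every CD31+ library: they summed to 437 to 667 CPM, against 30.1 to 46.1 in CD45+, 200 to 258 in MSC and 402 to 915 in MuSC. No mural marker was at 0 in a CD31+ library, and 7 of 11 tested were higher there than in each other population, as were 11.1% of all genes tested. The pericyte gene Rgs5 had 68.9, 55.7 and 87.6 CPM in CD31+ libraries, and the smooth muscle myosin gene Myh11 had 21.1, 37.7 and 35.4 CPM in CD31+ libraries. Platelet and erythroid transcripts summed to 104 to 1025 CPM in CD31+ libraries, against 2415 to 3651 in CD45+, 23.4 to 32.8 in MSC and 12.9 to 21.8 in MuSC. These sums did not rest on the same genes, since 6 to 8 of the 13 had no count in a CD45+ library. Of 7 tested, 5 were higher than the mean of the other populations and only Pf4 was lower. The 3 that were higher than in each were Hba-a1, Hba-a2 and Alas2. The hemoglobin gene Hbb-bs was at 163, 568 and 50.7 CPM in CD31+ replicates 1, 2 and 3. The part of mural, leukocyte or blood transcripts in the differences described here was not tested. In bulk samples fewer cells of a type and less RNA per cell cannot be told apart.

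**Figure D1:**
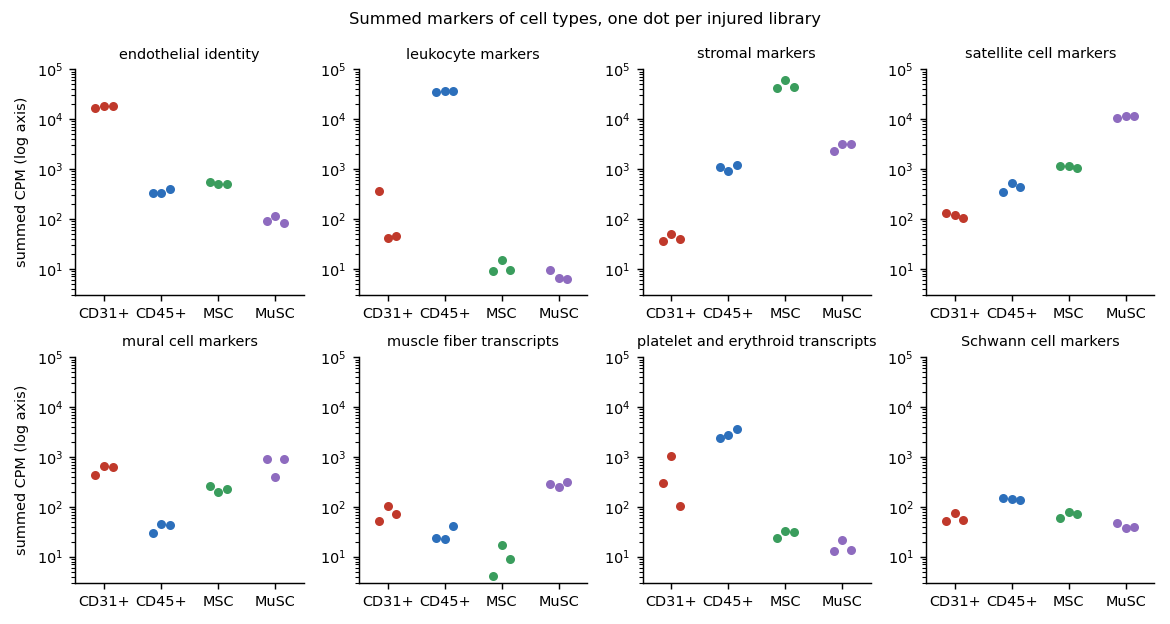
Summed CPM of 8 marker lists, on the raw library total and a log axis, with 1 dot per injured library and a color per population. The 14 endothelial genes sum to 17121 to 18766 CPM in the CD31+ libraries, and mural transcripts sum to 437 to 667 CPM there.

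Injured libraries held 4684092 to 7259626 counts, those of CD31+ cells 5160455 to 6423420, so 3 counts correspond to 0.413 to 0.640 CPM; counts without molecular identifiers include PCR copies. Library profiles correlated at r = 0.958 to 0.985 over the 12 pairs within groups and at most at 0.868 between groups. Stromal transcripts were not confined to MSC. The stromal gene Dcn had 1.33, 0 and 122 CPM in CD45+ replicates 1, 2 and 3 and 15.4, 332 and 239 CPM in MuSC replicates 1, 2 and 3, and Smoc2 had 1.51, 116 and 63.6 CPM in MuSC. Their part in the differences described here was not tested, and counts without these libraries are given with the other alternatives.

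Of 14544 genes tested, 4129 (28.4%) were higher and 3282 (22.6%) lower in injured CD31+ cells than the mean of the 3 other populations at an adjusted p below 0.05. That mean is taken over log2 levels, so a single population near 0 pulls it down. For 1237 of the 4129 higher genes the CD31+ level lay below that of the highest other population, and 1218 of the 3282 lower genes lay above the lowest. Each other population was therefore also tested by itself. Statements that follow call a gene higher or lower than each other population only where all 3 of these tests passed in the same direction, and name the mean where they rest on it. By the count over each population 1617 genes (11.1%) were higher in CD31+ cells than in each other population, 1184 of them by over 2-fold and 472 by over 8-fold against each. Conversely, 826 genes (5.68%) were lower than in each, 365 by over 2-fold and 96 by over 8-fold. The 3 CD31+ libraries lay above all 9 others for 1596 of the 1617 genes and below all 9 for 760 of the 826; of all tested genes 13.5% lay above and 6.39% below all 9. Against single populations, 29.5% of genes were higher and 27.1% lower than in CD45+ cells, 28.5% and 27.1% than in MSC, and 31.1% and 28% than in MuSC. The median log2 difference of all tested genes was 0.06.

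By the rule stated with the processing, the 10 genes with the largest excess were Gpihbp1, Dll4, Adgrg1, Grrp1, Cldn5, Sox17, Adgrf5, Robo4, Hba-a1 and Nepn. Gpihbp1, which carries lipoprotein lipase to the capillary surface, had 1146, 1276 and 1233 CPM in CD31+ libraries, against 1.06, 4.65 and 5.71 CPM in CD45+ libraries and no count in MSC or MuSC. The gene spans chr15:75596628-75599481 of GRCm38 (mm10) in the GENCODE vM21 annotation, which gives all gene positions here. It was 315-fold higher than in CD45+ cells (log2 fold change 8.30, SE 0.39, adjusted p = 3.31e-06) and at least 7654-fold higher than in MSC or MuSC at a floor of 3 counts over a group. Dll4, the Notch ligand of tip and arterial cells, had 428, 437 and 293 CPM in CD31+ libraries, against 1.33, 0.776 and 0.248 CPM in CD45+ libraries (log2 fold change 8.93, SE 0.33, adjusted p = 5.66e-09). Adgrg1, an adhesion G protein-coupled receptor, had 846, 1100 and 961 CPM in CD31+ libraries, against 1.59, 5.17 and 4.72 CPM in CD45+ (log2 fold change 7.97, SE 0.26, adjusted p = 2.59e-10). Standing above the other 9 libraries was a condition for a gene to be ranked here. Grrp1, named for its glycine- and arginine-rich protein, had 212, 231 and 223 CPM in CD31+ libraries against at most 0.776 CPM in CD45+ (log2 fold change 8.95, SE 0.27, adjusted p = 3.26e-10). Cldn5, the tight junction claudin, had 1848, 2164 and 1824 CPM in CD31+ libraries, against 2.12, 12.7 and 5.46 CPM in CD45+ (log2 fold change 8.16, SE 0.45, adjusted p = 1.23e-07).

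Sox17, an arterial transcription factor, was 323-fold, Adgrf5, another adhesion receptor, 480-fold and Robo4, a stabilizing receptor of the vessel wall, 345-fold higher than in CD45+ cells, the next population. The last of the 10 were Nepn, the nephrocan gene, at 90.2, 94.5 and 121 CPM in CD31+ libraries and 2 counts in all of MuSC, and the hemoglobin gene Hba-a1. Hba-a1 had 57.0, 205 and 14.8 CPM in CD31+ libraries, and Hbb-bs, given above, was highest and lowest in the same libraries. Without MuSC replicate 2 the difference of Hba-a1 did not pass from the mean (adjusted p = 0.0507), from CD45+ (0.105) or from MSC (0.0913). Its difference from MuSC did not pass without any 1 MuSC library (0.0537 to 0.120).

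The 250 bases before and 50 after the transcription start of 4 of these genes are shown because their excess over other injured populations was among the largest measured. They come from the RefSeq promoter table of build GRCm38.p6, and capitals mark GGAA or its reverse complement TTCC, the core bound by ETS factors such as Erg, Fli1 and Ets1. Dll4 lies at chr2:119325534-119325833 on the plus strand, Adgrg1 at chr8:94976859-94977158 on the plus strand (1 of 2 promoters in the table), Grrp1 at chr4:134254057-134254356 on the minus strand and Cldn5 at chr16:18776597-18776896 on the plus strand.
Dll4: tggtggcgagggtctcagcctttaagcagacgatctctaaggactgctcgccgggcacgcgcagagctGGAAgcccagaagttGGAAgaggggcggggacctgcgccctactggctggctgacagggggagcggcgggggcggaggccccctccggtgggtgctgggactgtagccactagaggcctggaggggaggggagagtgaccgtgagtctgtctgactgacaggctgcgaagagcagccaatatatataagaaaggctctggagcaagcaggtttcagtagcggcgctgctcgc
Adgrg1: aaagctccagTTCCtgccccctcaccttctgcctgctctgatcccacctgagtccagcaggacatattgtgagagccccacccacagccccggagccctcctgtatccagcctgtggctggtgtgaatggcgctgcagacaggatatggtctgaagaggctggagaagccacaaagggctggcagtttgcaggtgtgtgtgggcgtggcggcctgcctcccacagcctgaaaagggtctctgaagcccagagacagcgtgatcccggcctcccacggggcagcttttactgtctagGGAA
Grrp1: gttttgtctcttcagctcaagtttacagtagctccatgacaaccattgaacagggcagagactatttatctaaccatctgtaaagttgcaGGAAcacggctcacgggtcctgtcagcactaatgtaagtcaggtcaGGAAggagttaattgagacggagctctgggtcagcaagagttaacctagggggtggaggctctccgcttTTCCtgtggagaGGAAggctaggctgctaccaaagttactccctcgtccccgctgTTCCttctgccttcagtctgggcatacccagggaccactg
Cldn5: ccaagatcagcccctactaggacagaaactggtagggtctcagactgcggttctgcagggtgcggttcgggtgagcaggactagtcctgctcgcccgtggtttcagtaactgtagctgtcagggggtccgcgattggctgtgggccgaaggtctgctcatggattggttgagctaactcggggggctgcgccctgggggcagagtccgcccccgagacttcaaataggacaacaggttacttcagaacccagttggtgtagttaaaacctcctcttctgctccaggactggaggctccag
The core occurred 2 times in the Dll4, 2 times in the Adgrg1 and 5 times in the Grrp1 window, and the letters are not in the Cldn5 window. So short a motif is common: 95.9% of 27025 promoters of this length held it on either strand, as did 93.8% of the 1162 promoters of genes higher than in each other population. The longer GGAAGT, which contains the core, was in 21.9% of those 1162 against 28.9% of the 10490 promoters of tested genes. The SOX core AACAAT was in 6.63% against 5.81% and the GATA core AGATAA in 6.63% against 6.44%, both on either strand. A match describes letters, not binding.

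The 8 most abundant genes that were at least 2-fold higher than in each other population were Cav1, Cxcl12, Tm4sf1, Cd81, Fabp4, Eng, Aqp1 and Cd36. Cav1 (chr6:17306335-17341452), the coat protein of caveolae, had 5243, 4776 and 5348 CPM in CD31+ libraries, against 1261, 1290 and 1575 CPM in MSC, the next population (3.72-fold, log2 fold change 1.90, SE 0.12, adjusted p = 9.20e-09). The fatty acid binding protein gene Fabp4 had 3070, 2959 and 3100 CPM in CD31+ libraries and averaged 13.99 ± 8.48 CPM in CD45+ (SD, n = 3; log2 fold change 7.76, SE 0.42, adjusted p = 1.04e-07). Cd36, the fatty acid translocase, had 2041, 3110 and 2830 CPM in CD31+ libraries, against 345 ± 48.5 CPM in CD45+ (SD, n = 3; log2 fold change 2.95, SE 0.29, adjusted p = 7.81e-06). These genes too were taken only from those whose CD31+ libraries did not overlap the others. Aqp1, the water channel, had 2312, 2956 and 2793 CPM in CD31+ libraries and was 280-fold higher than in CD45+ cells. The BMP co-receptor Eng was 5.97-fold, the tetraspanin-like Tm4sf1 4.30-fold and the tetraspanin Cd81 2.81-fold higher than in MSC, though Tm4sf1 did not pass against MSC without CD31+ replicate 2 or any 1 MSC library (adjusted p = 0.0541 to 0.0790).

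**Figure D2:**
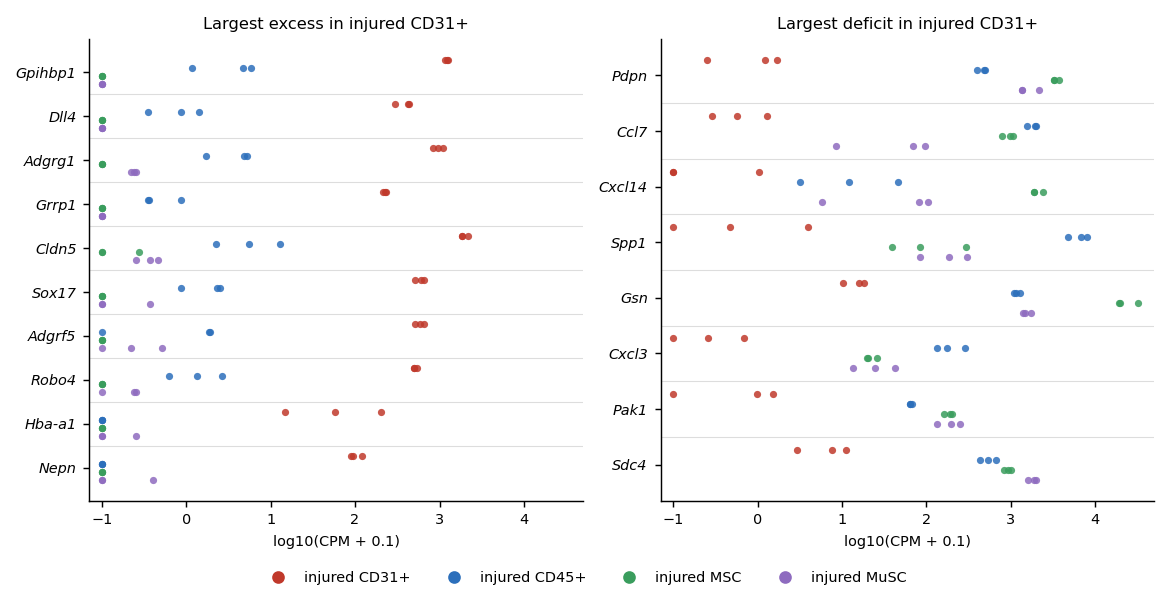
Level of each gene in the 12 injured libraries, as log10(CPM + 0.1), for the 10 genes with the largest excess and the 8 with the largest deficit in CD31+ cells; dots are libraries, colored by population. Gpihbp1 lies at 1146 to 1276 CPM in CD31+ libraries and at or below 5.71 CPM in the other 9, and Pdpn at or below 1.58 CPM in CD31+ libraries and at 401 CPM or more in the others.

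Genes were then read by role, in lists set against the shares of all tested genes: 11.1% higher and 5.68% lower than in each other population, and a median log2 difference of 0.06 over the mean. Since a population near 0 raises a difference over the mean, the median over the highest other population of each gene is given too. All 14 endothelial identity genes were higher than in each, with a median log2 difference of 7.63 over the highest other population; Pecam1 is one of them and was sorted on. Of 24 tested endothelial transcription factors 16 were higher than in each and none lower. Epas1, which encodes the hypoxia factor HIF-2α, had 853, 921 and 981 CPM in CD31+ libraries, against 20.3 ± 5.19 CPM in MSC (SD, n = 3). For Epas1 the log2 fold change over MSC was 5.49 (SE 0.20, adjusted p = 4.34e-11). Erg, an ETS factor that keeps endothelial identity, had 72.5, 87.1 and 73.5 CPM in CD31+ libraries, at most 1.99 CPM in CD45+ and no count in MSC or MuSC. Fli1, an ETS factor shared with blood cells, had 165, 190 and 188 CPM in CD31+ libraries against 130, 140 and 157 CPM in CD45+. This last difference did not pass in the main fit (log2 fold change 0.35, adjusted p = 0.107). It passed without a low-count filter (adjusted p = 0.0431), under DESeq2 (0.0309) and limma-voom (0.0318), with all 24 libraries in 1 fit (0.0487) and without MuSC replicate 1 (0.0258). Among 25 tested junction and adhesion genes 20 were higher than in each and none lower. Cdh5, the VE-cadherin gene, had 608, 638 and 570 CPM in CD31+ libraries and at most 3.72 CPM in CD45+ (log2 fold change 7.92, SE 0.28, adjusted p = 2.40e-11). Selp, the P-selectin that starts leukocyte rolling, had 113, 107 and 125 CPM in CD31+ libraries against 7.68 ± 2.61 CPM in CD45+ (SD, n = 3). Icam1, which holds rolling leukocytes, had 147, 169 and 124 CPM in CD31+ libraries against 261, 299 and 183 CPM in CD45+. This difference did not pass in the main fit (log2 fold change -0.76, adjusted p = 0.122). It passed under limma-voom (adjusted p = 0.0072), with the replicate number as a block (0.0332) and without MuSC replicate 2 (0.0035).

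Among VEGF, Tie and apelin genes, 16 of 23 tested were higher in CD31+ cells than in each other population and 1 was lower, with a median log2 difference of 5.18 over the mean and 3.02 over the highest other population. Of the receptors, Kdr (VEGF receptor 2) had 360, 374 and 367 CPM in CD31+ libraries, against 3.53 ± 0.762 CPM in CD45+ (SD, n = 3; log2 fold change 6.70, SE 0.23, adjusted p = 8.16e-11). Flt1 (VEGF receptor 1) had 989, 1077 and 1041 CPM in CD31+ libraries and was 163-fold higher than in CD45+ cells. Tie1, an orphan receptor that acts with Tek in angiopoietin signaling, had 621, 661 and 621 CPM in CD31+ libraries and was 365-fold higher than in CD45+ cells. Among the ligands Pgf, placental growth factor, had 537, 894 and 578 CPM in CD31+ libraries against 6.38, 11.7 and 13.9 CPM in MSC (log2 fold change 5.99, SE 0.34, adjusted p = 9.29e-08). Angpt2, the angiopoietin that loosens vessels, had 274, 406 and 272 CPM in CD31+ libraries against 10.6, 14.5 and 16.4 CPM in CD45+ (log2 fold change 4.51, SE 0.27, adjusted p = 9.88e-09). Apln, the apelin of tip cells, had 823, 1002 and 711 CPM in CD31+ libraries and was 52.9-fold higher than in MSC, and its receptor Aplnr had 455, 330 and 397 CPM in CD31+ libraries. Vegfa, the ligand of Kdr and Flt1, was the 1 member lower than in each, but it rested on few reads: 0, 0 and 0.473 CPM (3 counts) in CD31+ libraries against means of 3.18 CPM in CD45+, 1.22 in MSC and 1.35 in MuSC. Without CD31+ replicate 1 it passed against neither MSC nor MuSC (adjusted p = 0.0784 and 0.0604), nor without CD31+ replicate 2 (0.0706 and 0.0543), and without MSC replicate 1 it did not pass against MSC (0.191).

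The Notch pathway was divided between its members. Of 17 tested, 9 were higher in CD31+ cells than in each other population and 2 were lower, with a median log2 difference of 2.05 over the mean and 1.12 over the highest other population. The ligands Dll4 and Jag2, the receptors Notch1 and Notch4, the fringe enzyme Mfng and the target Hey1 were higher. Notch4 had 257, 304 and 280 CPM in CD31+ libraries against 7.22 ± 2.23 CPM in MSC (SD, n = 3; log2 fold change 5.29, SE 0.22, adjusted p = 1.34e-10). Notch1 had 443, 580 and 526 CPM in CD31+ libraries against 181, 169 and 166 CPM in CD45+ (log2 fold change 1.59, SE 0.16, adjusted p = 5.17e-07). The receptor gene Notch2 was among the 2 lower: it had 14.4, 8.69 and 16.9 CPM in CD31+ libraries, against 416 ± 46.8 CPM in CD45+, 176 ± 9.31 in MSC and 232 ± 29.7 in MuSC (SD, n = 3 each). For Notch2 the log2 fold change against MSC was -3.71 (SE 0.19, adjusted p = 1.13e-09). Rbpj, the DNA-binding partner of every Notch receptor, had 9.36, 10.54 and 9.78 CPM in CD31+ libraries against 18.9, 19.3 and 23.3 CPM in MuSC, the lowest other population (log2 fold change -1.05, SE 0.17, adjusted p = 9.48e-05). The libraries of the 2 sides did not overlap for either gene.

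BMP and TGF-beta genes were less set apart, with 7 of 21 tested higher than in each, none lower and a median log2 difference of 1.404 over the mean and 0.47 over the highest other population. The receptor Acvrl1 (ALK1), a partner of Eng, had 413, 534 and 474 CPM in CD31+ libraries against 122, 168 and 129 CPM in MSC (log2 fold change 1.76, SE 0.16, adjusted p = 2.43e-07). The activin subunit gene Inhbb had 31.05, 59.5 and 23.4 CPM in CD31+ libraries and at most 3.51 CPM in MuSC, while the other subunit gene Inhba had 1.93, 0.925 and 2.05 CPM in CD31+ libraries against 72.9, 40.9 and 38.7 CPM in MSC. Bmp4 had 89.9, 68.8 and 51.9 CPM in CD31+ libraries and was lower than in MuSC, with 145, 151 and 119 CPM there (log2 fold change -0.98, SE 0.25, adjusted p = 4.93e-03). In a list of endothelial growth factors, binding proteins and other genes such as Apold1, 9 of 17 tested were higher than in each. The 1 lower was Csf1, and the median log2 difference was 3.93 over the mean and 1.98 over the highest other population. Kitl, the stem cell factor, had 181, 232 and 229 CPM in CD31+ libraries against 18.3, 18.1 and 14.6 CPM in MSC (log2 fold change 3.65, SE 0.19, adjusted p = 8.47e-10). Pdgfb, which attracts pericytes, had 163, 163 and 187 CPM in CD31+ libraries, at most 8.58 CPM in MuSC and no count in MSC. Lgals9, the galectin-9 gene, had 540, 481 and 572 CPM in CD31+ libraries against 605, 586 and 575 CPM in CD45+, which did not pass the test (adjusted p = 0.199). Guidance genes had 14 of 20 tested higher than in each and none lower, with a median of 4.21 over the mean and 2.36 over the highest other population. The ephrin receptor Ephb4 had 201, 196 and 211 CPM in CD31+ libraries and was 11.04-fold higher than in MSC, and the netrin receptor Unc5b, at 64.9, 45.5 and 61.1 CPM in CD31+ libraries, was 15.9-fold higher than in MSC.

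Among 19 tested genes of vascular tone and flow 10 were higher than in each and none lower, with a median log2 difference of 3.39 over the mean and 0.39 over the highest other population. Nos3, the endothelial nitric oxide synthase, had 291, 337 and 254 CPM in CD31+ libraries against 1.86, 1.81 and 0.745 CPM in CD45+ (log2 fold change 7.64, SE 0.27, adjusted p = 1.11e-11). The sphingosine-1-phosphate receptor S1pr1 had 1192, 1434 and 1270 CPM in CD31+ libraries and was 66.9-fold higher than in CD45+ cells. Edn1, the vasoconstrictor endothelin, had 290, 315 and 305 CPM in CD31+ libraries and its activating enzyme Ece1 had 825, 878 and 755 CPM in CD31+ libraries; they were 33.7-fold and 8.29-fold higher than in MSC.

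Capillary genes of fatty acid and glycerol handling were mostly higher: 13 of 19 tested than in each, 1 lower, with a median log2 difference of 4.92 over the mean and 1.47 over the highest other population. Aqp7, the glycerol channel, had 396, 335 and 512 CPM in CD31+ libraries against at most 1.24 CPM in CD45+ (log2 fold change 9.20, SE 0.39, adjusted p = 4.12e-10). The lipid-sensing nuclear receptor Pparg had 59.6, 50.9 and 65.2 CPM in CD31+ libraries against 20.2, 21.98 and 21.3 CPM in CD45+ (log2 fold change 1.47, SE 0.24, adjusted p = 8.22e-05). Lpl, lipoprotein lipase, had 691, 759 and 850 CPM in CD31+ libraries against 590, 679 and 590 CPM in CD45+, a small excess (log2 fold change 0.31, SE 0.10, adjusted p = 0.0196) that did not pass without CD31+ replicate 3 (0.0837) or CD45+ replicate 1 (0.0733) or 3 (0.0824). The 1 lower member was Slc27a1, the fatty acid transporter FATP1, with 4.61, 2.96 and 4.10 CPM in CD31+ libraries against 8.01, 12.2 and 7.13 CPM in MSC (log2 fold change -1.21, SE 0.38, adjusted p = 0.0154), but not past the threshold without CD31+ replicate 2 (0.0598) or MSC replicate 2 (0.0750).

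Genes of arteries and of veins were both present. Of 13 tested arterial genes 10 were higher than in each (median log2 difference 6.10 over the mean and 3.99 over the highest other population), with Gja5, the connexin-40 gene, at 106, 89.1 and 73.9 CPM in CD31+ libraries and at most 1.20 CPM in MuSC. Of 12 tested venous genes 9 were higher than in each (median 5.19 over the mean and 2.88 over the highest other population), with Vwf, the von Willebrand factor stored for clotting, at 241, 178 and 149 CPM in CD31+ libraries against 5.31, 1.81 and 7.69 CPM in CD45+ (log2 fold change 5.25, SE 0.32, adjusted p = 4.59e-09). Of 8 tested lymphatic genes 3 were higher and 1, Pdpn, lower than in each. Among the 3 was Nts, which passed against no other population under DESeq2 (adjusted p = 0.0879 to 0.139). Flt4 (VEGF receptor 3), used by lymphatic and by sprouting blood endothelium, had 147, 187 and 159 CPM in CD31+ libraries and at most 2.23 CPM in CD45+. Tip cell and sprouting genes had 12 of 20 tested higher than in each and none lower (median 4.76 over the mean and 1.64 over the highest other population). Esm1 and Adm, also on that list, were higher than the mean but not than each. Esm1 had 112, 95 and 57 counts in CD31+ libraries and 783, 609 and 514 in MuSC. Adm had 397, 557 and 402 counts in CD31+ libraries and 1672, 3274 and 1766 in MSC. Basement membrane genes had 7 of 18 higher than in each and none lower; their median was 6.26 over CD45+ cells but 0.45 over MSC, the other main matrix source here. Col4a1 had 1461, 1445 and 1356 CPM in CD31+ libraries against 467, 536 and 553 CPM in MSC (log2 fold change 1.45, SE 0.29, adjusted p = 1.64e-03). Hspg2, the perlecan gene, had 1169, 1342 and 1206 CPM in CD31+ libraries against 747, 852 and 811 CPM in MSC, and the libraries did not overlap. The edgeR test did not pass (log2 fold change 0.63, adjusted p = 0.316), but the Hspg2 difference from MSC passed under limma-voom (adjusted p = 6.93e-04).

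**Figure D3:**
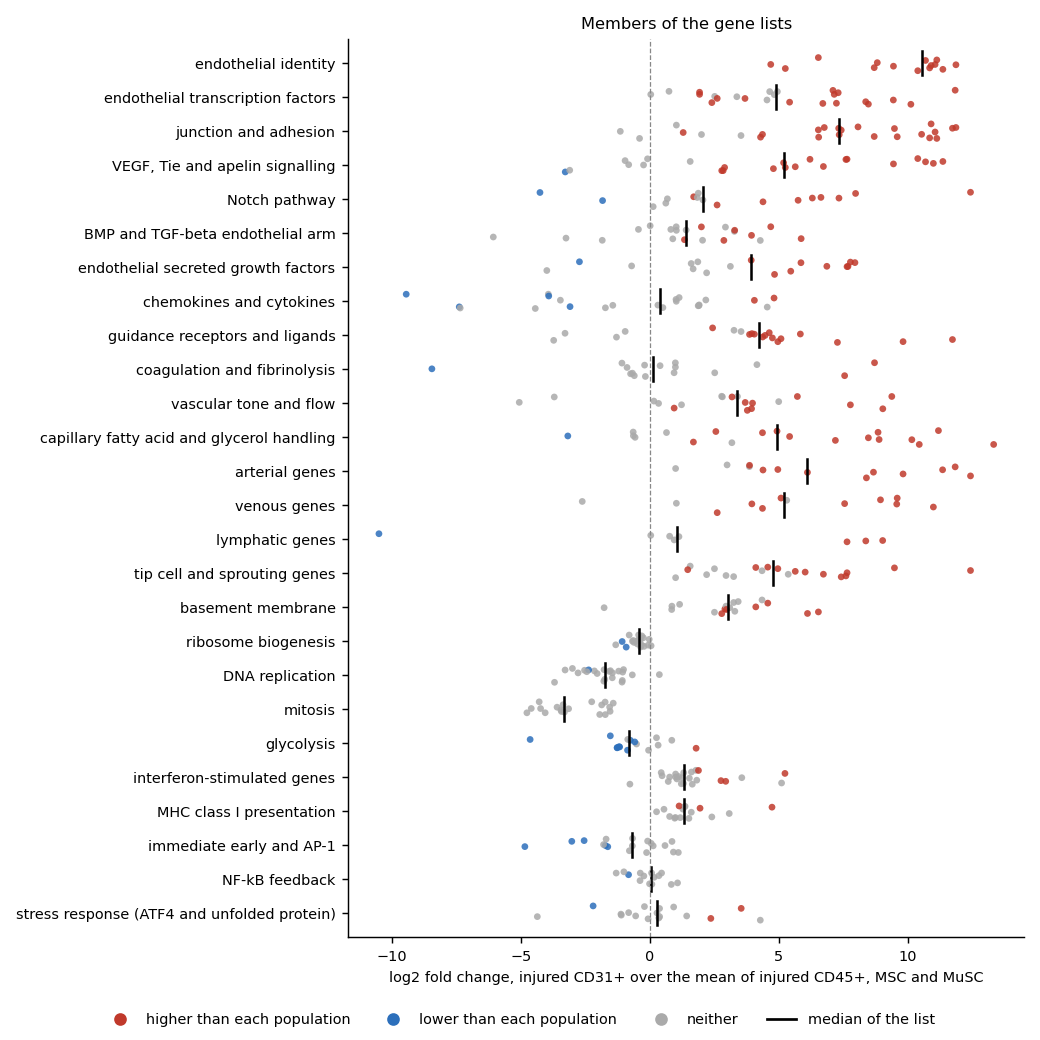
Log2 difference of injured CD31+ cells over the mean of the other 3 injured populations for the tested members of 26 gene lists. Red dots were higher and blue dots lower than in each other population, gray dots neither; black bars are medians, from 10.53 for endothelial identity to -3.31 for mitosis.

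The 8 genes with the largest deficit were Pdpn, Ccl7, Cxcl14, Spp1, Gsn, Cxcl3, Pak1 and Sdc4. Pdpn (chr4:143267431-143299564), podoplanin, a surface protein of lymphatic endothelium and of activated stromal cells, had 0.149, 1.11 and 1.58 CPM in CD31+ libraries, against 401, 495 and 480 CPM in CD45+, 3244, 3218 and 3761 CPM in MSC and 1344, 2177 and 1370 CPM in MuSC. It was 485-fold lower than in CD45+ cells, the lowest other population (log2 fold change -8.92, SE 0.42, adjusted p = 2.15e-08). Gsn, the actin-severing gelsolin, had 15.6, 18.1 and 10.1 CPM in CD31+ libraries, against 1174 ± 98.4 CPM in CD45+, 23692 ± 7517 in MSC and 1517 ± 177 in MuSC (SD, n = 3 each). For Gsn the log2 fold change against CD45+ was -6.33 (SE 0.29, adjusted p = 2.13e-08). Sdc4, a heparan sulfate proteoglycan, had 11.1, 7.58 and 2.84 CPM in CD31+ libraries, against 542 ± 119 CPM in CD45+, 916 ± 93.6 in MSC and 1824 ± 190 in MuSC (SD, n = 3 each). For Sdc4 the log2 fold change against CD45+ was -6.23 (SE 0.40, adjusted p = 3.71e-07). That no CD31+ library reached the level of the other 9 was a condition for genes to be ranked here. Pak1, a kinase of cell motility, had 0.891, 0 and 1.42 CPM in CD31+ libraries against 64.9 ± 1.74 CPM in CD45+ (SD, n = 3; log2 fold change -6.29, SE 0.42, adjusted p = 7.25e-08). Spp1, osteopontin, had 3.86, 0.370 and 0 CPM in CD31+ libraries against 6499 ± 1639 CPM in CD45+ (SD, n = 3).

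Chemokines and cytokines were split. Of 22 tested, 2 were higher than in each, Cxcl12 and Cx3cl1, and 4 lower, Cxcl1, Cxcl3, Ccl7 and Lif; the median log2 difference over the mean was 0.41, or -0.43 with members at 0 counts set to their bound, -2.55 without CD31+ replicate 1 and -1.92 under limma-voom, so its sign is not fixed. Lif was lower than MuSC but not past the threshold without CD31+ replicate 1 (adjusted p = 0.0762) or 2 (0.0533) or MuSC replicate 2 (0.120), nor lower than CD45+ without CD45+ replicate 2 (0.0894). Against the single populations the median was -3.51 over CD45+, -0.94 over MSC and 2.28 over MuSC. Cxcl12 (chr6:117168535-117181367), which retains and attracts CXCR4-bearing cells, had 4842, 4492 and 4917 CPM in CD31+ libraries, against 2.65, 43.7 and 25.8 CPM in CD45+, 944, 951 and 650 CPM in MSC and 248, 257 and 209 CPM in MuSC. Its log2 fold change over MSC was 2.49 (SE 0.60, adjusted p = 7.38e-03). Cx3cl1, the membrane-bound ligand for patrolling monocytes, had 103, 124 and 96.0 CPM in CD31+ libraries against 23.8, 17.3 and 25.6 CPM in MuSC (log2 fold change 2.27, SE 0.27, adjusted p = 4.75e-06). Both stood clear of the other libraries. The monocyte chemoattractant Ccl7 had 1.19, 0.185 and 0.473 CPM in CD31+ libraries, against 1568, 1966 and 1918 CPM in CD45+, 1065, 782 and 976 CPM in MSC and 8.37, 96.7 and 69.4 CPM in MuSC. For Ccl7 the log2 fold change against MuSC was -6.45 (SE 1.06, adjusted p = 7.49e-04). MuSC replicates 2 and 3, the higher for Ccl7, were also the higher MuSC libraries for Dcn and Pdgfra, as given above. Without them, CD31+ replicate 1 and CD45+ replicate 3, the log2 Ccl7 deficit against the remaining MuSC library was -4.54. Cxcl3, a neutrophil attractant, had 0.594, 0 and 0.158 CPM in CD31+ libraries against 20.2, 25.7 and 19.4 CPM in MSC (log2 fold change -6.23, SE 0.78, adjusted p = 5.71e-05). Cxcl14 had 0, 0 and 0.947 CPM in CD31+ libraries against 11.9, 3.10 and 45.4 CPM in CD45+ (log2 fold change -5.88, SE 1.88, adjusted p = 0.0263), and this did not pass without any 1 CD31+ library or CD45+ replicate 3 (0.0739 to 0.121). Il1b, a cytokine of inflammatory leukocytes, had 52.6, 0.185 and 0 CPM in CD31+ libraries against 4060, 6877 and 4487 CPM in CD45+; the 1 CD31+ library with a level above 0.185 CPM was the one with the most leukocyte transcripts.

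Coagulation and fibrinolysis genes had 2 of 16 tested higher than in each, Vwf and Mmrn2, and 1 lower, with a median log2 difference over the mean of 0.11, which ran from -0.15 to 0.41 without single libraries. Mmrn2, a matrix protein of vessels, had 869, 833 and 781 CPM in CD31+ libraries and was 263-fold higher than in MSC. F3, tissue factor, which starts clotting, was the lower one. It had 0, 0 and 0.158 CPM (1 count) in CD31+ libraries, against 8.495, 15.3 and 9.43 CPM in CD45+, 201, 259 and 225 CPM in MSC and 0.961, 16.6 and 4.23 CPM in MuSC. Procr, the protein C receptor of the anticoagulant pathway, had 173, 161 and 111 CPM in CD31+ libraries against 45.8, 138 and 72.1 CPM in MSC. These overlapped and did not pass in the main fit (log2 fold change 0.80, adjusted p = 0.0850). The difference passed under limma-voom (adjusted p = 0.00895), with the replicate number as a block (0.0427), with all 24 libraries in 1 fit (0.0491) and without MSC replicate 2 (0.00178).

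Glycolytic genes were mostly lower. Of 16 tested, 9 were lower in CD31+ cells than in each other population (Hk2, Gpi1, Aldoa, Tpi1, Pgk1, Pgam1, Eno1, Pkm and Ldha) and 1, Hk1, was higher. The list had medians of -1.17 over CD45+, -0.41 over MSC and -0.63 over MuSC. Pgk1 did not pass against MSC without CD31+ replicate 3 (adjusted p = 0.0750) or MSC replicate 3 (0.0856). Ldha, which makes lactate, had 1080, 1006 and 967 CPM in CD31+ libraries, against 2015 ± 161 CPM in CD45+, 2482 ± 161 in MSC and 2533 ± 93.8 in MuSC (SD, n = 3 each; log2 difference from their mean -1.20, SE 0.07, adjusted p = 2.81e-09). Hexokinase, the entry step, differed by isoform. Hk1 had 134, 158 and 118 CPM in CD31+ libraries, against 42.0 ± 3.44 CPM in CD45+, 42.3 ± 2.93 in MSC and 34.4 ± 5.06 in MuSC (SD, n = 3 each; log2 difference from their mean 1.79, SE 0.11, adjusted p = 2.44e-09). Hk2 had 4.16, 0.370 and 0.473 CPM in CD31+ libraries, against 65.9 ± 13.97 CPM in CD45+, 41.8 ± 3.67 in MSC and 31.6 ± 4.42 in MuSC (SD, n = 3 each). CD31+ libraries did not overlap the other 9 for either isoform, in opposite directions.

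DNA replication and mitosis genes had their low medians against MSC and MuSC rather than against CD45+ cells. Of 23 tested replication genes 21 were lower than the mean of the others, where 22.6% of all genes were, and 1, Cdt1, was lower than in each; their medians were 0.90 over CD45+, -2.59 over MSC and -3.17 over MuSC. Mcm5, a subunit of the replicative helicase, had 77.1, 62.1 and 56.0 CPM in CD31+ libraries, against 27.1, 25.1 and 45.9 CPM in CD45+, 642, 390 and 522 CPM in MSC and 651, 622 and 580 CPM in MuSC. It was higher than in CD45+ cells (log2 fold change 0.99, SE 0.24, adjusted p = 3.51e-03) and lower than in MuSC (log2 fold change -3.24, SE 0.24, adjusted p = 2.41e-07). Of 19 mitosis genes 11 were lower than the mean and none lower than in each. Their count below the mean was 7 without CD31+ replicate 1, 6 without CD31+ replicate 3, 7 without CD45+ replicate 3 and 5 under limma-voom, and with the replicate number as a block 16 were below the mean and 2 lower than in each. Mitosis genes had medians of -0.33 over CD45+, -3.51 over MSC and -5.07 over MuSC. Top2a, the topoisomerase of dividing cells, had 0.891, 1.11 and 0.947 CPM in CD31+ libraries, against 0.265, 3.36 and 6.70 CPM in CD45+, 82.3, 16.6 and 50.8 CPM in MSC and 167, 59.0 and 112 CPM in MuSC. Of 21 tested ribosome biogenesis genes 14 were lower than the mean, 8 without CD31+ replicate 3, and 2, Bop1 and Noc4l, lower than in each. The nucleolar gene Npm1 had 461, 472 and 377 CPM in CD31+ libraries, against 410 ± 50.3 CPM in CD45+, 1538 ± 78.4 in MSC and 2070 ± 40.2 in MuSC (SD, n = 3 each). It was lower than in MuSC (log2 fold change -2.25, SE 0.11, adjusted p = 3.08e-10), and its difference from CD45+ cells did not pass (adjusted p = 0.481).

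Immediate early genes, which respond within minutes to stress and growth factors, had 5 of 18 tested lower than in each other population (Fos, Fosb, Junb, Egr1 and Egr2) and none higher, with medians of -3.14 over CD45+, 0.09 over MSC and 0.08 over MuSC. Without the libraries left out above for Ccl7, the log2 fold change against MuSC was -0.30 for Junb and -0.82 for Fosb. In the main fit these were -0.63 and -1.32. Fos had 112, 106 and 78.9 CPM in CD31+ libraries, against 4267 ± 639 CPM in CD45+, 281 ± 37.0 in MSC and 436 ± 98.8 in MuSC (SD, n = 3 each). For Fos the log2 fold change against MSC was -1.51 (adjusted p = 2.35e-05). Among 14 tested NF-kB feedback genes none was higher and 1, Nfkb2, lower than in each; against MSC it did not pass without CD31+ replicate 2 or 3 or MSC replicate 1 or 2 (adjusted p = 0.0608 to 0.116). Of 17 tested stress response genes Ddit4 and Trib3 were higher and Psat1, a serine synthesis enzyme, lower than in each. Trib3, a pseudokinase induced by ATF4, had 39.5, 29.6 and 46.9 CPM in CD31+ libraries against 5.43, 8.64 and 6.06 CPM in MSC (log2 fold change 2.53, SE 0.34, adjusted p = 1.88e-05).

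Interferon-stimulated genes and MHC class I genes had medians above those of MSC and MuSC and slightly below those of CD45+ cells. Of 24 interferon-stimulated genes 22 were higher than the mean, where 28.4% of all genes were, but 4 were higher than in each; the medians were -0.23 over CD45+, 1.31 over MSC and 3.12 over MuSC. The 4 were Bst2 (tetherin), Gbp2, Gbp3 and Ifi44. Bst2 had 395, 330 and 322 CPM in CD31+ libraries against 158, 177 and 182 CPM in CD45+ (log2 fold change 1.02, SE 0.12, adjusted p = 3.36e-06). Gbp2, a guanylate-binding protein, had 173, 110 and 168 CPM in CD31+ libraries against 39.5, 42.7 and 40.3 CPM in MSC (log2 fold change 1.88, SE 0.20, adjusted p = 1.27e-06). Of 16 MHC class I presentation genes 15 were higher than the mean and 3 higher than in each, with medians of -0.39 over CD45+, 1.72 over MSC and 2.35 over MuSC. H2-D1, a classical class I gene whose reads can be shared with close relatives, had 2820, 2042 and 2131 CPM in CD31+ libraries and was lower than in CD45+, with 4057, 4226 and 3610 CPM there (log2 fold change -0.77, SE 0.12, adjusted p = 5.02e-05). H2-Q4, H2-Q6 and H2-T22, the 3 that were higher than in each, are likewise near copies of other genes of that cluster, and H2-T22 did not pass against MSC without CD31+ replicate 1 (adjusted p = 0.117) or MSC replicate 3 (0.0515).

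**Figure D4:**
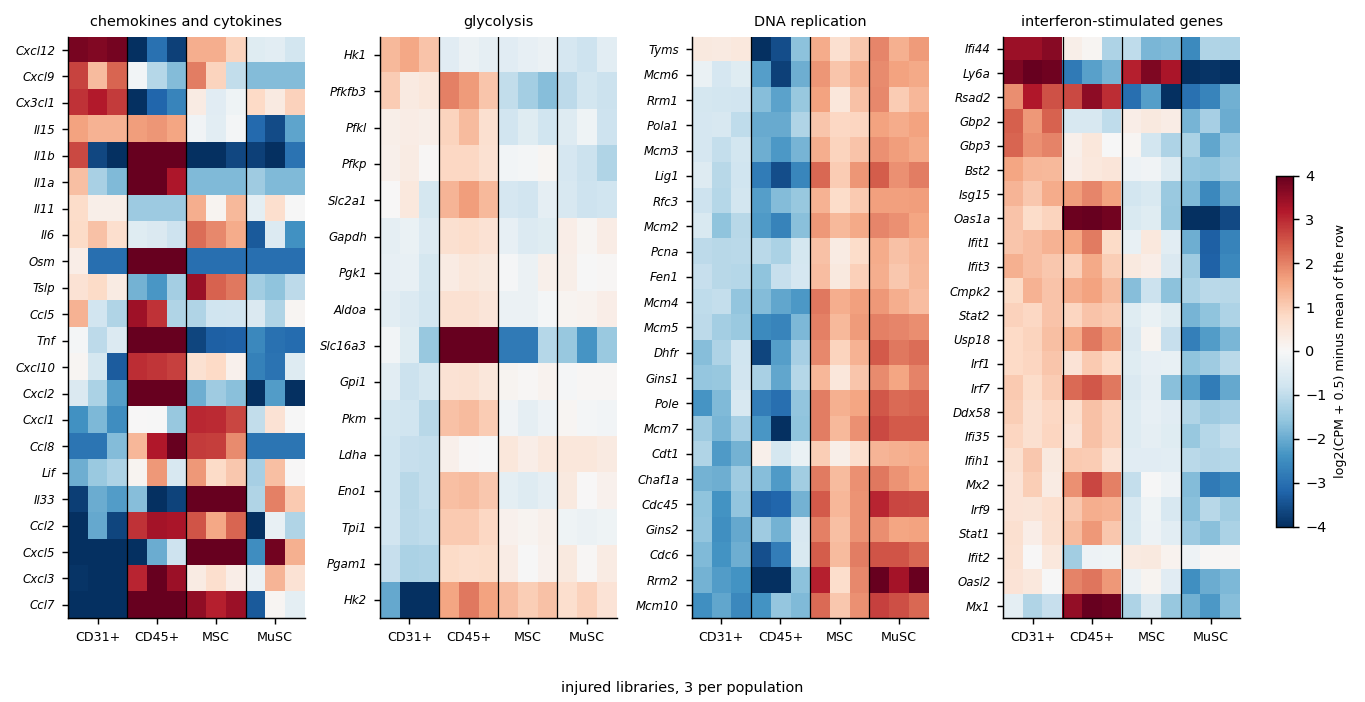
Levels in the 12 injured libraries, as log2(CPM + 0.5) minus the mean of each row, for chemokine, glycolysis, DNA replication and interferon-stimulated genes; CD31+ libraries are the left columns. Of the genes shown, 21 of 23 replication genes were lower and 22 of 24 interferon-stimulated genes higher than the mean of the other populations.

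Whether these differences were also there in uninjured muscle was examined over all 24 libraries, through the change in CD31+ excess: the log2 difference of CD31+ cells from the mean of the other 3 populations in injured muscle, minus the same difference in uninjured muscle. Of 16263 genes tested 917 (5.64%) had a larger and 592 (3.64%) a smaller difference in injured muscle. Of 1616 genes that were higher than in each other injured population and tested in both fits, 1078 (66.7%) were also higher than in each uninjured population, which is 70.6% of the 1527 such uninjured genes. Of all 16263 genes 9.92% were higher than in each uninjured population. Levels in the following sentences come from the scaling over 24 libraries, and since the measure combines 8 groups, it can change through any of them.

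Gains and losses are ranked here among genes averaging 20 CPM or more in injured or uninjured CD31+ cells with a count in every group. The largest gain was that of Bmp2 (chr2:133552159-133562885), a ligand that acts on endothelium and bone. It averaged 26.6 ± 9.30 CPM in injured CD31+ cells and 0.0942 ± 0.163 CPM, a single count, in uninjured CD31+ cells (SD, n = 3 each), and its excess changed by 9.68 (SE 1.01, adjusted p = 9.52e-07). Dusp8, a phosphatase of stress kinases, averaged 49.4 ± 14.6 CPM in injured and 4.88 ± 2.95 CPM in uninjured CD31+ cells (SD, n = 3 each). The Dusp8 excess changed by 5.28 (SE 0.59, adjusted p = 2.46e-06). Fhl2, a LIM protein, averaged 47.6 ± 13.1 CPM in injured and 0.753 ± 1.30 CPM in uninjured CD31+ cells (SD, n = 3 each). The Fhl2 excess changed by 5.24 (SE 0.82, adjusted p = 2.73e-04). Each of these was higher in injured than in uninjured CD31+ cells by more than the spread of either group. Sh2d5, an adaptor gene, averaged 143 ± 45.0 CPM in injured and 0.507 ± 0.456 CPM in uninjured CD31+ cells (SD, n = 3 each; change of excess 4.7996, SE 1.19, adjusted p = 0.0122). It had 7 counts in all in uninjured CD45+, 3 in uninjured MSC and 8 in uninjured MuSC, and the change did not pass without uninjured MSC replicate 1 or MuSC replicate 3 (adjusted p = 1.00). The MHC class II gene H2-Ab1 had 206, 8.14 and 2.37 CPM in the injured CD31+ libraries of the 12-library scaling, the highest in replicate 1 with its leukocyte transcripts. In CD45+ cells H2-Ab1 averaged 2617 ± 442 CPM in injured and 17921 ± 1602 CPM in uninjured muscle (SD, n = 3 each). The H2-Ab1 change of excess was 8.04 (SE 1.83, adjusted p = 9.81e-03) with that library and 4.22 (adjusted p = 4.18e-03) without it.

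The 5 largest losses under the same limit were those of Prg4, Sphk1, Col8a1, Csf1 and Sdc1. Csf1, the macrophage growth factor, averaged 29.6 ± 12.1 CPM in injured and 41.2 ± 2.18 CPM in uninjured CD31+ cells, while MuSC averaged 161 ± 19.2 CPM in injured and 6.81 ± 1.47 CPM in uninjured muscle (SD, n = 3 each). The Csf1 excess changed by -3.47 (SE 0.28, adjusted p = 5.07e-08). Sphk1, which makes sphingosine-1-phosphate, averaged 34.4 ± 10.501 CPM in injured and 22.5 ± 11.99 CPM in uninjured CD31+ cells, and MSC 99.998 ± 16.96 CPM in injured and 4.25 ± 2.34 CPM in uninjured muscle (SD, n = 3 each). The Sphk1 excess changed by -4.51 (SE 0.60, adjusted p = 4.50e-05). Prg4, lubricin, averaged 16.6 ± 2.73 CPM in injured and 48.5 ± 6.87 CPM in uninjured CD31+ cells, and MSC 6285 ± 597 CPM in injured and 623 ± 330 CPM in uninjured muscle (SD, n = 3 each). The Prg4 excess changed by -4.87 (SE 0.67, adjusted p = 1.42e-04). For all 3 genes the CD31+ averages moved less, as a ratio, than those of the other population named. Col8a1, a vessel collagen, changed by -3.75 (SE 0.76, adjusted p = 4.24e-03), with 79.3 ± 18.3 CPM in injured and 144 ± 8.06 CPM in uninjured CD31+ cells (SD, n = 3 each), but not past the threshold without CD45+ injured replicate 3 (adjusted p = 0.445). Sdc1, a syndecan, changed by -3.21 (SE 0.41, adjusted p = 3.97e-05), with 15.9 ± 5.27 CPM in injured and 37.6 ± 10.2 CPM in uninjured CD31+ cells (SD, n = 3 each).

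By role, sprouting and matrix genes were among those that gained. Of 20 tip cell and sprouting genes 7 gained (Angpt2, Pgf, Nid2, Col4a1, Col4a2, Pdgfb and Insr) and none lost, and of 18 basement membrane genes 8 gained and 1, Col8a1, lost, against 5.64% and 3.64% of all genes. The lists share 3 of the genes that gained. Pgf averaged 692 ± 214 CPM in injured and 12.2 ± 8.62 CPM in uninjured CD31+ cells (SD, n = 3 each). The Pgf excess changed by 4.59 (SE 1.35, adjusted p = 0.0373), which did not pass in 11 of 24 fits without 1 library (0.0510 to 0.200). Angpt2 averaged 328 ± 84.99 CPM in injured and 94.6 ± 27.6 CPM in uninjured CD31+ cells (SD, n = 3 each). The Angpt2 excess changed by 1.70 (SE 0.50, adjusted p = 0.0375), which did not pass in 16 of the 24 fits (0.0512 to 0.104), nor with the replicate block (0.0502). The gain of Pdgfb did not pass in 20 of them and that of Insr in 6. Col4a1 averaged 1464 ± 87.0 CPM in injured and 1000 ± 20.4 CPM in uninjured CD31+ cells, and MSC 528 ± 41.6 CPM in injured and 897 ± 184 CPM in uninjured muscle (SD, n = 3 each). The Col4a1 excess changed by 1.16 (SE 0.27, adjusted p = 9.36e-03). The collagen's average was higher in injured than in uninjured CD31+ cells and lower in injured than in uninjured MSC. Among transcription factors Klf2 and Klf4, both induced by blood flow, and Foxo1 gained, and Ets2, Elk3 and Hhex lost, though Klf2 did not pass in 5 of the 24 fits, and Hhex did not without MSC injured replicate 3 (adjusted p = 1.00). Myc, a growth factor-induced gene, averaged 261 ± 43.3 CPM in injured and 14.4 ± 0.499 CPM in uninjured CD31+ cells (SD, n = 3 each), and gained 2.94 (SE 0.18, adjusted p = 2.22e-10).

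DNA replication genes were among those that lost, with 12 of 23 lost and none gained, and glycolysis genes, with 7 of 16 lost and 1, Hk1, gained. Mcm5 averaged 67.1 ± 11.9 CPM in injured and 21.6 ± 3.74 CPM in uninjured CD31+ cells, and MuSC 664 ± 41.7 CPM in injured and 40.4 ± 8.24 CPM in uninjured muscle (SD, n = 3 each). The Mcm5 excess changed by -1.13 (SE 0.29, adjusted p = 0.0166), which did not pass without injured CD31+ replicate 3 (0.0604) or uninjured CD31+ replicate 2 (0.0606). Ldha averaged 1049 ± 73.1 CPM in injured and 584 ± 13.8 CPM in uninjured CD31+ cells, and MSC 2528 ± 174 CPM in injured and 515 ± 47.8 CPM in uninjured muscle (SD, n = 3 each). The Ldha excess changed by -1.10 (SE 0.12, adjusted p = 9.52e-07). Both averages were higher in injured than in uninjured CD31+ cells while the excess was smaller. Rgcc, a capillary regulator of the cell cycle, averaged 364 ± 56.5 CPM in injured and 933 ± 221 CPM in uninjured CD31+ cells (SD, n = 3 each). The Rgcc excess changed by -2.996 (SE 0.37, adjusted p = 2.84e-05). Of 24 interferon-stimulated genes 5 lost (Irf7, Ifit1, Ifit3, Oasl2 and Bst2) and none gained. Irf7, a factor that amplifies interferon, averaged 83.2 ± 8.75 CPM in injured and 206 ± 14.1 CPM in uninjured CD31+ cells (SD, n = 3 each). The Irf7 excess changed by -1.04 (SE 0.26, adjusted p = 9.95e-03). Of the 14 identity genes Egfl7 lost (change of excess -1.94, adjusted p = 6.11e-03), and it was still higher than in each injured population. Egfl7 had 17020, 14304 and 17342 counts in injured and 16483, 12236 and 12942 in uninjured CD31+ libraries. In MSC it had 38, 16 and 23 counts in injured and 0, 3 and 0 in uninjured muscle. No Notch gene gained or lost.

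**Figure D5:**
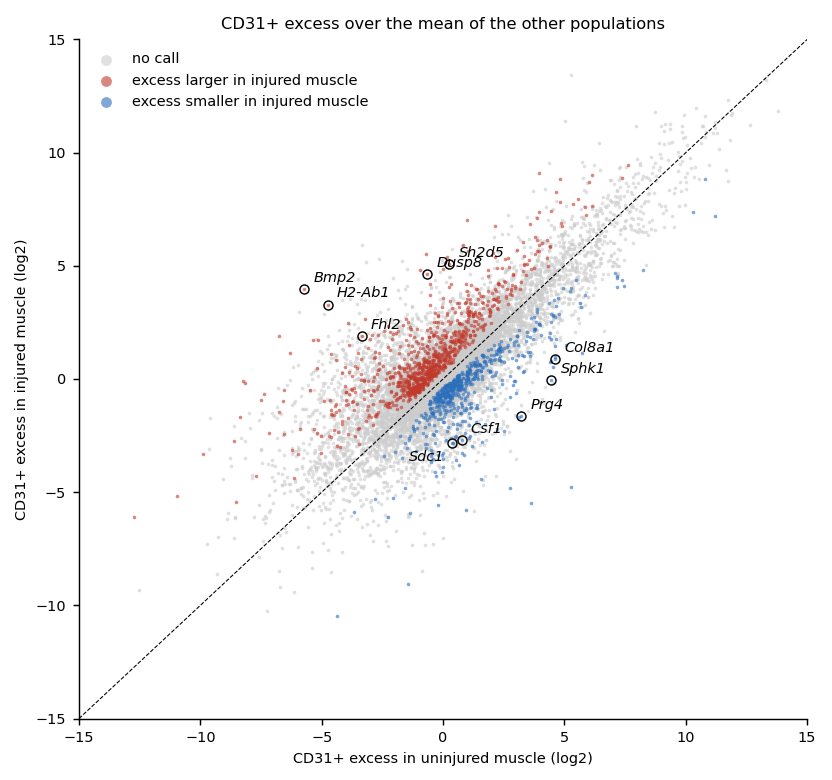
Log2 difference of CD31+ cells from the mean of the other 3 populations for every gene tested, in uninjured muscle (x axis) and injured muscle (y axis). Red points are the 917 genes with a larger and blue points the 592 with a smaller difference in injured muscle at adjusted p below 0.05; the circled genes are the 5 largest gains and losses among genes at 20 CPM or more in a CD31+ group with a count in every group, from Bmp2 (9.68) to Prg4 (-4.87).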

How the data were processed

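Whole-number counts per gene symbol were deposited by the authors in 1 table (52997 symbols, all 24 libraries). They were made, per the submitters' processing notes, with STAR 2.5.4 and featureCounts (version not given there) on mm10; the annotation and the treatment of reads with several matches are not stated there. Per the labels' protocols, 1000 cells a library were lysed, cDNA was primed with oligo(dT) and amplified by PCR, and paired reads of 25 bases were sequenced; this marks neither strand nor molecules, so overlapping and antisense genes cannot be separated and near copies share reads.

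From those counts, genes were filtered with filterByExpr and scaled by TMM, and the 12 injured libraries were fitted with edgeR 4.0.16 (robust quasi-likelihood test, R 4.3.3), 1 term per group and 8 residual degrees of freedom, with Benjamini-Hochberg adjustment over all 14544 genes and a threshold of 0.05. Contrasts were CD31+ minus the mean of the 3 other log2 group means, and minus each. A fit of all 24 libraries (16263 genes) gave the change of excess. The test was tried on simulated counts for the 12 libraries, with 200 changed genes. In the contrast with the mean it recovered 71.7% of log2 changes of 1 and 92.6% of those of 2, with 4 false calls over 13979 genes. By the rule over each population it recovered 43.5% and 82.4%. The rate of false calls where as many genes differ as in the real libraries was not tested. Alternatives were limma-voom (limma 3.58.1), DESeq2 1.42.0, other scaling and filters, a stricter threshold, a replicate block and leaving out libraries. Replicates of a group differed by more than sampling noise in all 12 pairs, so none was counted as a duplicate deposit; that does not show that they hold separate cells, and the spread that p-values measure may be technical in part.

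The comparison, its gene lists (33 lists, 539 genes) and its rules were chosen with earlier results of these data known. Named genes were, among named gene models: the 10 with the largest excess over the mean among genes higher than in each other population, at 20 CPM or more and without overlap; the 8 most abundant of those at least 2-fold over each; the 8 with the largest deficit among genes at 20 CPM or more in each other population; the 5 largest gains and losses of excess at 20 CPM or more in a CD31+ group with a count in every group; the 4 list members with the smallest adjusted p; and the gate genes. The genes with the largest deficit also had to be lower than in each other population, without overlap of libraries. Other list members given as examples were chosen after their values were seen. Promoters came from the RefSeq table for GRCm38.p6, for the first 4 genes of the first group that had one there, chromosome 18 left out.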

Additional observations from a re-analysis of the deposited data

Results flagged for a closer look

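In 21 of the genes named, the CD31+ excess differed between injured and uninjured muscle by 2 or more on the log2 scale and past the adjusted p of 0.05 of the 24-library edgeR quasi-likelihood test. The excess was larger in injured muscle for Bmp2 (9.68), H2-Ab1 (8.04), Dusp8 (5.28), Fhl2 (5.24), Sh2d5 (4.7996), Pgf (4.59), Myc (2.94), the basement membrane gene Nid2 (2.74) and Apold1 (2.39), an endothelial early response gene that averaged 172 ± 48.2 CPM in injured and 46.5 ± 28.5 CPM in uninjured CD31+ cells (SD, n = 3 each). It was smaller in injured muscle for Prg4 (-4.87), Sphk1 (-4.51), Col8a1 (-3.75), Csf1 (-3.47), Sdc1 (-3.21), Rgcc (-2.996), Hhex (-2.63) and Icam1 (-2.05). A smaller excess need not mean a lower level in CD31+ cells. Icam1 had 987, 914 and 784 counts in injured and 411, 347 and 262 in uninjured CD31+ libraries. In MuSC it had 49, 153 and 57 counts in injured and 0, 1 and 0 in uninjured muscle.

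Podoplanin (Pdpn) had the largest loss of the 21, -6.08 (SE 0.85, adjusted p = 1.86e-04): CD31+ cells averaged 0.969 ± 0.737 CPM in injured and 5.83 ± 5.64 CPM in uninjured muscle, and MSC averaged 3469 ± 284 CPM in injured and 421 ± 13.7 CPM in uninjured muscle (SD, n = 3 each). Pdpn had 1, 6 and 10 counts in injured and 53, 22 and 0 counts in uninjured CD31+ replicates 1, 2 and 3. Of the other lymphatic genes, Lyve1 had 7, 21 and 1 counts in injured and 458, 38 and 0 in uninjured CD31+ cells. Reln had 1, 1 and 11 counts in injured and 200, 28 and 6 in uninjured CD31+ cells. For all of these the higher uninjured counts lay in replicates 1 and 2, not in replicate 3. Flt4 and Nts did not go this way. Flt4 had 987, 1009 and 1009 counts in injured and 954, 496 and 607 in uninjured CD31+ cells. Nts had 53, 55 and 17 counts in injured and 30, 43 and 24 in uninjured CD31+ cells. The part of lymphatic transcripts in the change was not tested. Mcm10, which acts in activating the replicative helicase (-3.16), the mitotic kinase Cdk1 (-3.29) and the chromatin assembly gene Chaf1a (-2.01) also lost. Chaf1a averaged 4.48 ± 0.935 CPM in injured and 4.08 ± 2.08 CPM in uninjured CD31+ cells, and MuSC averaged 61.9 ± 11.6 CPM in injured and 8.00 ± 0.571 CPM in uninjured muscle (SD, n = 3 each).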

How the results depend on the processing

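Under RLE scaling, no filter, a 5 CPM filter, DESeq2, limma-voom, the replicate block and the 24-library fit, genes higher than in each other population numbered 1514 to 1750 and genes lower than in each 705 to 909, against 1617 and 826 in the main result. RLE moved the median of all genes by -0.01 (log2). The change of excess was less stable: at an adjusted p below 0.01 it held for 455 gains and 278 losses, and DESeq2 called 1052 losses, against 917 gains and 592 losses; the stricter threshold lowers counts by construction and the cause of the DESeq2 count was not tested. Leaving out 1 library gave 3718 to 4289 genes higher and 2904 to 3278 lower than the mean, 1486 to 1652 higher and 737 to 830 lower than each, 716 to 928 gains and 419 to 712 losses.

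The labels do not say what equal replicate numbers share, so libraries were not treated as paired. Between libraries of equal number, 4 of 18 correlations of their deviations were over 0.1 (range -0.03 to 0.31), each of MuSC with CD45+ or MSC. Libraries of unequal number were not compared, so these values cannot settle whether libraries were paired. With the number as a block, 1594 genes were higher and 827 lower than each, with 858 gains and 582 losses. Without CD31+ replicate 1 and CD45+ replicate 3, chosen after seeing the data for their transcripts of other populations, the counts were 1529 and 737. Leaving out MuSC replicates 2 and 3 as well, for their stromal transcripts, leaves 1 MuSC library, assumed to vary like the other groups, and a looser low-count filter; it gave 1332 and 607, with 620 gains and 337 losses.

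Of 209 values followed for named genes, 181 kept their side of the threshold in every alternative run. These values were differences from the mean and changes of excess. Tests against single populations were not among them. Some of those changed call, and only part of these changes are given with the genes above. For example, Psat1 and Noc4l did not pass against CD45+ with all 24 libraries in 1 edgeR fit (adjusted p = 0.102 and 0.104). Values for 4 genes crossed 0 (Il1b, Lyz2, Myc and Ptprc), all 4 uncalled in the main result against the mean. Without single libraries Il1b ran from -5.49 to 2.51. It became a call in the opposite direction without CD31+ replicate 1 (-5.49, adjusted p = 0.0386), without the 2 libraries named above (-5.53, 0.0432) and without the 4 (-5.24, 0.0479). Pdgfra lost its call under limma-voom (adjusted p = 0.128) and without any 1 CD31+ library (0.0556 to 0.0615) or CD45+ replicate 3 (1.00), H2-Ab1 (0.114) and Pdpn (0.0718) lost their change of excess under limma-voom, and Cenpe lost its call without the 2 libraries (0.0516). The change of excess was lost in 17 of 24 fits without 1 library for Apold1, 9 for Cdk1, 4 each for Chaf1a and Mcm10 and 3 for Icam1, and Oasl2 lost its call over the mean in 5 of 12. The cause was not tested. At these depths a gene under about 0.640 CPM rests on 3 counts or fewer.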
